A study of Homo sapiens with 6 samples.

Results

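HGF, ANGPT1, NOG, HHIP and UNC5B are 5 genes for secreted or cell-surface signalling proteins, and they were followed in THP-1 cells in which RKIP was knocked down. They were taken by name out of 14884 genes that had a value under 1 gene symbol, each through the probe with the highest mean over the 6 arrays, and they were picked because of the size of their difference between the groups. Their own differences are therefore given as a description, with no test. THP-1 is an established human acute monocytic leukaemia line. Total RNA was measured on Affymetrix Human Gene 2.0 ST arrays in 3 control samples, transduced with the empty psi-LVRU6GP lentiviral vector, and in 3 RKIP shRNA samples, transduced with the same vector carrying a hairpin against RKIP. Both kinds of cell were kept under 1.5 µg/mL puromycin. The labels name no time point, do not say how many hairpins or transductions were used, and call the samples biological replicates without naming separate cultures, so the spread between arrays may be partly technical.

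The 5 proteins act between cells. HGF is the hepatocyte growth factor, secreted as an inactive precursor that proteases cleave before it can bind the receptor kinase MET, and ANGPT1 (angiopoietin 1) is the secreted ligand of the receptor kinase TEK, also called TIE2. NOG (noggin) and HHIP (hedgehog-interacting protein) are decoys: noggin binds bone morphogenetic proteins (BMPs) and keeps them from their receptors, whereas HHIP, held at the cell surface, binds hedgehog ligands and is itself a transcriptional target of hedgehog signalling. UNC5B is a netrin receptor with an intracellular death domain, known from axon and vessel guidance. In bone marrow, HGF and ANGPT1 are best known as products of stromal cells, and both are also made by some leukaemic blasts.

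Upstream sequence was at hand for HGF and HHIP, 2 of the 5 genes, and is shown with the hedgehog receptor gene PTCH1, which is a known target of the GLI transcription factors and was measured here beside HHIP. Each run gives the 250 bases before a start site, 5′ to 3′ on the gene's strand, from RefSeq on GRCh38.p14. Capitals mark matches to a GLI site (GACCACCCA) or a cyclic AMP response element (TGACGTCA), searched on both strands. The HGF window is chr7:81770048-81770297 (minus strand), the HHIP window chr4:144645906-144646155 (plus strand) and the PTCH1 window chr9:95509267-95509516 (minus strand), 1 of 5 PTCH1 windows in the table and the only one of them with the GLI match, for which it was picked.
HGF: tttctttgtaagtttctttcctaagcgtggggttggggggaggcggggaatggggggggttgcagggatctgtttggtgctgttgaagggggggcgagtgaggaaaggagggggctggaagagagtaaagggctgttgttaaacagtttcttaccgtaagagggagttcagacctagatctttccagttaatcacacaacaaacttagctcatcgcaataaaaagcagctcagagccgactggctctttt
HHIP: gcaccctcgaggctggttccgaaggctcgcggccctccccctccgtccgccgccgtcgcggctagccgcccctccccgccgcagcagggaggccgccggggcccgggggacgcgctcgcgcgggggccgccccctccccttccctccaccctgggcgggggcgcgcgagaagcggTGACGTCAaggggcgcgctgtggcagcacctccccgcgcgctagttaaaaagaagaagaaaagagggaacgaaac
PTCH1: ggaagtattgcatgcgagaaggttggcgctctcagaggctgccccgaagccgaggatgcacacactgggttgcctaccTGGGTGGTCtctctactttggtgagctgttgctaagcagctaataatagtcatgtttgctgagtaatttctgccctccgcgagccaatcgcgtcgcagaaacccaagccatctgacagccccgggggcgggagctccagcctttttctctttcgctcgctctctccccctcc
The HHIP window held a cyclic AMP response element 68 to 75 bases before the start site, a motif found in 1.65% of 35116 such windows. The PTCH1 window held a GLI site on the opposite strand, 164 to 172 bases before the start, a motif found in 0.199% of windows. The HGF window matched neither of them, and the HHIP window held no GLI site in these letters. The HGF and HHIP windows also held no AP-1 site (TGANTCA, 6.57% of windows), amino acid response element core (TGATGNAA, 3.14%), TATA box (TATAAA, 10.7%), SNAI1-type E-box (CACCTG, 17.5%) or FOXO site (GTAAACA, 2.98%). No 2 of these motifs overlapped in a window shown. G and C made up 50% of the HGF window and 74.8% of the HHIP window, beside a median of 58% over all windows. These matches describe the letters only.

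The knockdown was seen in every RKIP shRNA array. PEBP1, which encodes RKIP, stood at 9.52, 9.77 and 9.75 in the control arrays and at 8.25, 8.18 and 8.24 in the RKIP shRNA arrays (log2 values), which left 36.4% of the control level (95% interval 31.6% to 42.1%, limma adjusted p = 0.000228). The exact permutation p of 0.1 (two-sided) is the lowest this design can reach. Arrays correlated at 0.994 to 0.996 within a group and at 0.987 to 0.988 between groups over the named genes, and no array stood apart. The number of arrays, 3 per group, limits the precision of each value. THP-1 cells should show myeloid genes and lack those of stroma and vessel wall. Of 19 listed myeloid markers 10 were measured, of which 6 rose and 1 fell, where 10.0% and 10.2% of all genes did. LYZ rose by 2.55, TYROBP by 2.37 and ANPEP by 1.29, whereas SPI1, CD68 and MPO rose by 0.26 to 0.49 and CD4 fell by 0.35. The mean log2 value of the list lay at 6.36 to 6.44 in control and 7.09 to 7.17 in RKIP shRNA arrays. MPO stood at 12.76 and SPI1 at 8.78 in control cells, whereas CD14 and CD36 lay below 4.08, the median of all rows of the table, in both groups. A group mean below this median is called dim, since background compresses the changes of dim probes.

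HGF alone among the 5 genes was higher in RKIP shRNA cells. Its log2 values were 7.59, 7.57 and 7.47 in the control arrays and 9.65, 9.58 and 9.80 in the RKIP shRNA arrays. The lowest RKIP shRNA array lay well above the highest control array, and neither group held a stray value. The means were 7.54 ± 0.07 and 9.68 ± 0.11 (SD, n = 3 each), a difference of 2.13 (SE 0.08) on the log2 scale, or 4.39-fold. By the size of the difference HGF ranked 9 among the genes that were higher.

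NOG was lower in RKIP shRNA cells by the largest amount among the 5 genes. Its log2 values were 9.02, 8.92 and 8.73 in control and 6.60, 6.56 and 6.89 in RKIP shRNA arrays. Even the highest RKIP shRNA array lay far under the lowest control array. The means were 8.89 ± 0.15 and 6.68 ± 0.18 (SD, n = 3 each), a difference of -2.20 (SE 0.12), which left 21.7% of the control value and ranked 4 among the genes that were lower. NOG stayed bright in both groups, so its ratio does not rest on a dim value.

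HHIP, the hedgehog decoy, went from a moderate to a dim value. The control arrays read 5.65, 5.52 and 5.41 and the RKIP shRNA arrays 3.43, 3.98 and 3.32. All 3 RKIP shRNA arrays lay under the median of all rows, with replicate 2 above the other two. The means were 5.53 ± 0.12 and 3.58 ± 0.35 (SD, n = 3 each), a difference of -1.95 (SE 0.17) or 3.86-fold, and this fold rests on a dim value in RKIP shRNA cells. It ranked 10 among the genes that were lower.

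ANGPT1 and UNC5B were lower by similar amounts, with a like pattern over the RKIP shRNA arrays. ANGPT1 read 6.59, 6.60 and 6.25 in control and 5.02, 4.47 and 5.02 in RKIP shRNA arrays. UNC5B read 6.57, 6.48 and 6.51 in control and 4.95, 4.45 and 4.93 in RKIP shRNA arrays. In both genes RKIP shRNA replicate 2 was the low array and the others lay close together. In control, replicate 3 was low for ANGPT1, whereas UNC5B hardly varied, and the groups of neither gene overlapped. The ANGPT1 means were 6.48 ± 0.20 and 4.84 ± 0.32, a difference of -1.64 (SE 0.17) that left 32.1% of the control value, and the UNC5B means were 6.52 ± 0.04 and 4.78 ± 0.28, a difference of -1.74 (SE 0.14) that left 29.9% (SD, n = 3 each). They ranked 20 and 14 among the genes that were lower. Each of the 5 genes had 1 probe, so no other probe could be set beside it, and the groups did not overlap for any of them, as for 37.9% of all genes. The choice of the genes fixes that count.

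**Figure D1:**
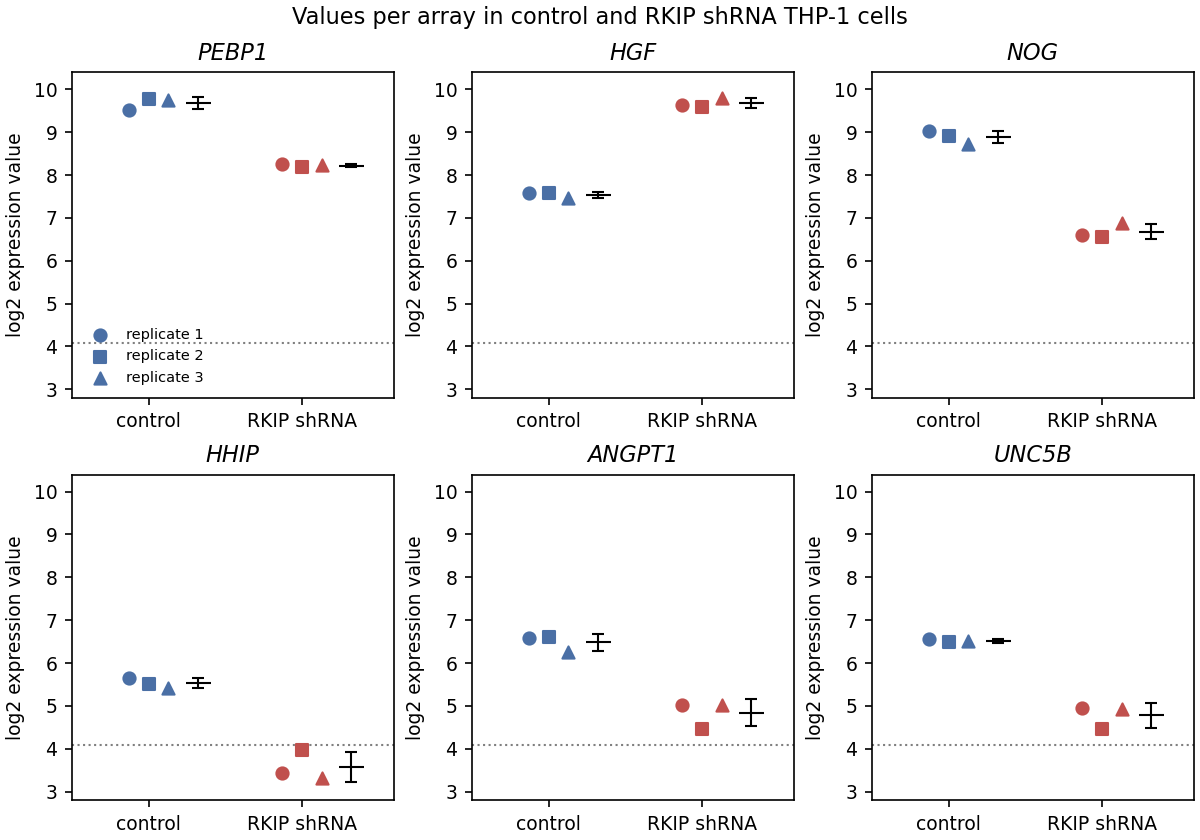
Log2 expression values of PEBP1 and the 5 genes in each array (points, 1 shape per replicate number) for control and RKIP shRNA THP-1 cells, with the mean and SD of 3 arrays in black. The dotted line is the median of all rows, 4.08. HGF lies higher in all 3 RKIP shRNA arrays and the other genes lie lower, with HHIP falling under the dotted line.

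The RKIP shRNA arrays varied more than the control arrays for each of the 5 genes. The SD was 0.32 for ANGPT1, 0.28 for UNC5B and 0.35 for HHIP in RKIP shRNA cells. Genes within 0.5 of the same mean over all 6 arrays had a median SD of 0.12, 0.12 and 0.15 there. These genes were not matched on brightness within a group, and their median SD was higher at lower means. For the genes that were lower, the excess may therefore be overstated in RKIP shRNA cells and understated in control. For HGF and NOG the SD in RKIP shRNA cells was 0.11 and 0.18, beside 0.06 and 0.07 for genes matched in the same way. In control the SD of NOG (0.15 beside 0.06), ANGPT1 (0.20 beside 0.11) and HGF (0.07 beside 0.05) was also above that of matched genes. The SD of HHIP (0.12 beside 0.14) and UNC5B (0.04 beside 0.11) was below it. RKIP shRNA replicate 2 was the lowest array of its group for HGF, NOG, ANGPT1 and UNC5B and the highest for HHIP. Leaving it out gave a difference of -1.46 for ANGPT1, -1.58 for UNC5B and -2.15 for HHIP.

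Likeness was measured as the root mean square difference between 2 genes' log2 profiles over the 6 arrays, each centred on its own mean, so a small value means the same size and shape of difference. It is a description over 6 arrays in 2 groups. UNC5B was the gene most like ANGPT1 of all named genes (0.12), ahead of FSIP2 (0.14) and PIERCE2 (0.15). For UNC5B itself, FSIP2 came closest (0.06), then ANGPT1 (0.12) and C5AR1 (0.16), the receptor gene for complement C5a. HGF was closest to ANXA1 (0.06), which encodes annexin A1, followed by the proteinase 3 gene PRTN3 (0.21) and the lysozyme gene LYZ (0.21). NOG was closest to ACSM3 (0.10), an acyl-CoA synthetase gene, then MIR628 (0.10) and the transcription factor gene ATF5 (0.19). HHIP was closest to VLDLR-AS1 (0.15), then to MFAP4 (0.21), a matrix protein gene, and MIR548I2 (0.22), a member of a microRNA family with near-identical copies. Among the 4 genes that were lower, HHIP and ANGPT1 differed most (0.42).

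The genes beside the 5 loci did not pass the test. The nearest measured protein-coding gene on each side of each member was taken from RefSeq gene order, which gave 10 genes. None of the 10 passed limma at an adjusted p under 0.05, where 20.2% of all genes passed, and none had an unadjusted p under 0.05. Their log2 changes ran from -0.28 for PCLO, next to HGF, to 0.27 for FREM3, next to HHIP, and the smallest adjusted p was 0.18. Of the 10, 5 were dim in both groups. FREM3 was among these, and it passed without RKIP shRNA replicate 3 (0.44, limma adjusted p = 0.018). ANAPC10, a subunit gene of the anaphase-promoting complex on the other side of HHIP, changed by 0.14 with a 95% interval of -0.08 to 0.35. PCBD1, next to UNC5B, changed by -0.12 (-0.28 to 0.03).

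HHIP has an antisense gene that starts beside it. In the RefSeq windows the start sites of HHIP and HHIP-AS1 lay 137 bases apart and pointed away from each other, and the upstream windows of the pair shared 136 bases, which include the cyclic AMP response element shown above. HHIP-AS1 read 4.97, 5.00 and 4.86 in control and 4.90, 4.88 and 4.85 in RKIP shRNA arrays. These groups overlapped, and the log2 change was -0.07 with a 95% interval of -0.23 to 0.10 (limma adjusted p = 0.58). HHIP, by contrast, was lower by 1.95 in the same arrays; the difference between the 2 changes was not tested, since HHIP was chosen for its own. UNC5B-AS1, the antisense gene at UNC5B, was dim in both groups and changed by 0.34 (0.05 to 0.63, limma adjusted p = 0.11). Whether these probes read 1 strand is not given in the sources used here.

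**Figure D2:**
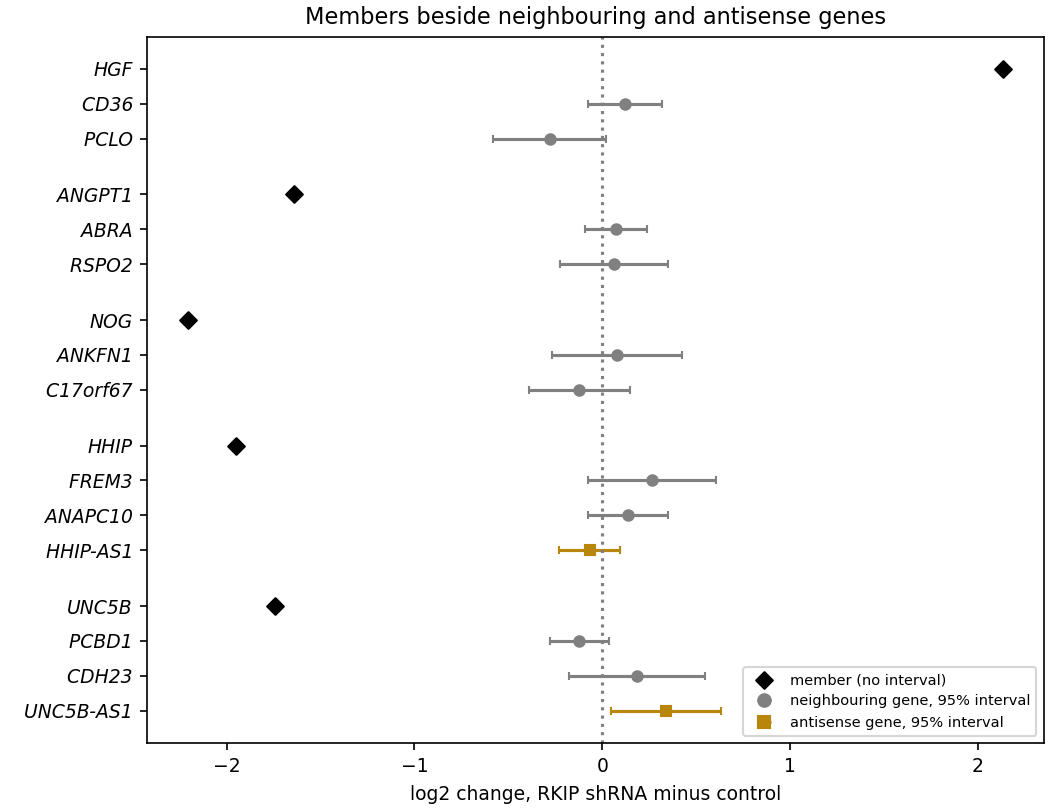
Log2 change (RKIP shRNA minus control) of the 5 genes (black diamonds, no interval, since they were chosen by it), of the nearest measured protein-coding genes on each side (grey) and of genes named as antisense (gold), with 95% intervals from limma. The neighbours lie between -0.28 and 0.27, and HHIP-AS1 at -0.07 lies beside HHIP at -1.95.

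The partners of the 5 proteins were read from 6 lists of ligands, receptors, processing enzymes, inhibitors and targets. Of 166 listed genes other than the members, 120 were measured, of which 4 rose and 19 fell. Together this is 19.2% of them, close to the 20.2% of all genes that passed, so the total is no result about the partners. By direction, 3.33% rose and 15.8% fell, where 10.0% and 10.2% of all genes did, and the median log2 change was 0.03 beside 0.02 over all genes. After quantile normalisation 7 rose and 18 fell, where 1588 and 1513 of all genes did. Leaving out control replicate 2 left 2 that rose and 12 that fell, and leaving out RKIP shRNA replicate 1 or 2 left 2 that rose.

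**Figure D3:**
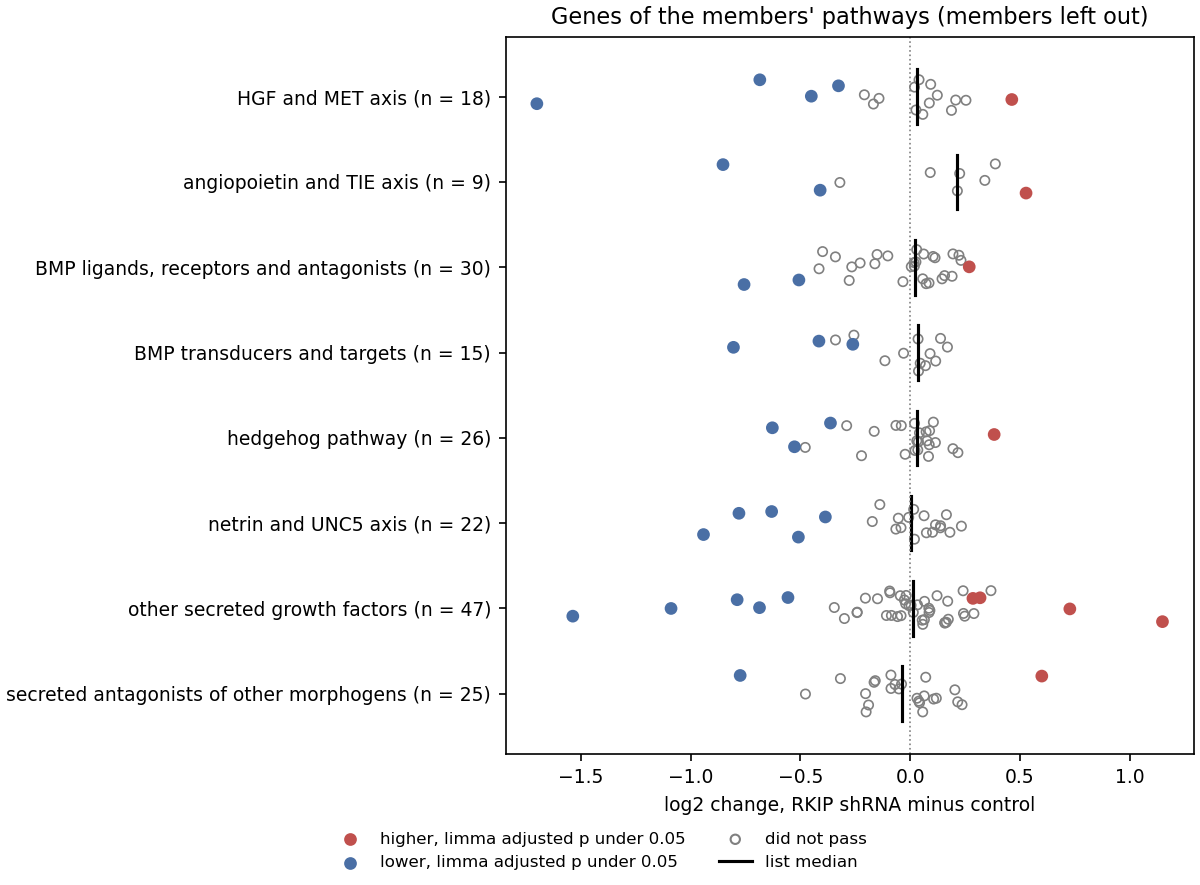
Log2 change (RKIP shRNA minus control) of each measured gene in 6 pathway lists and 2 lists of other secreted factors, with the 5 members left out. Filled points passed limma at an adjusted p under 0.05 (red higher, blue lower), open points did not, and black bars are list medians, which lie between -0.04 and 0.22. Most genes lie near 0, and in the netrin list and the list of BMP transducers and targets all filled points lie on the lower side.

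On the HGF side, the receptor gene MET was dim and the docking protein genes GAB1 and GAB2 fell. MET was dim in both groups (2.73 ± 0.25 and 2.75 ± 0.12, SD, n = 3 each) and changed by 0.02 (SE 0.14, limma adjusted p = 0.94). Among the processing enzymes, ST14, which encodes matriptase, an HGF-activating protease, changed by 0.25 (adjusted p = 0.055) and passed after quantile normalisation, a filter on dim probes, array weights or a trended prior. HGFAC, the HGF activator gene, changed by 0.09 (adjusted p = 0.74). Of 18 measured genes of this list 1 rose and 4 fell, 27.8% against 20.2% of all genes. GAB2, a docking adaptor of receptor kinases, read 6.42, 6.52 and 6.51 in control and 4.70, 4.72 and 4.93 in RKIP shRNA arrays. It fell by 1.70 (SE 0.09, limma adjusted p = 0.000154). Its relative GAB1, the main docking protein of MET, fell by 0.68 (adjusted p = 0.015) and lost the call without control replicate 2 or RKIP shRNA replicate 1 (adjusted p = 0.055 each). CD44, a surface glycoprotein whose variant forms act as MET coreceptors, fell by 0.45 (adjusted p = 0.0044), and the adaptor gene GRB2 rose by 0.46 (adjusted p = 0.0029). PLXNB1, a semaphorin receptor gene, fell by 0.33 and is named outside the rule; with an array left out it passed only without RKIP shRNA replicate 1, the highest adjusted p being 0.12. SPINT1 and SPINT2, inhibitors of HGF activation, had no row under their names.

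Around ANGPT1, neither the paralog nor the measured receptor gene passed the test. ANGPT2, which encodes the ligand that can oppose ANGPT1, changed by 0.22 (SE 0.16, limma adjusted p = 0.41), and TIE1, the partner receptor of TEK, was dim in both groups and changed by 0.23 (adjusted p = 0.23). TEK had no row under its name. Of 9 measured genes 1 rose and 2 fell, 33.3% against 20.2% of all genes. The kinase gene AKT1 rose by 0.53 (adjusted p = 0.012), with a second probe at 0.24 that did not pass (adjusted p = 0.17 over all rows). The transcription factor gene FOXO1, whose protein AKT keeps out of the nucleus, fell by 0.85 (adjusted p = 0.021), and without control replicate 1 or 2 its adjusted p was 0.059 or 0.065. ANGPTL4, an angiopoietin-like secreted inhibitor of lipoprotein lipase, fell by 0.41 (adjusted p = 0.021) and kept its call only without control replicate 1 or RKIP shRNA replicate 1, the other 4 fits giving up to 0.064.

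Around NOG, SMAD6, SMAD7 and BAMBI, which restrain BMP signalling, fell, whereas other genes that restrain it did not pass as lower. SMURF1 and SMURF2, ubiquitin ligases, changed by 0.07 (limma adjusted p = 0.51) and -0.03 (adjusted p = 0.85). The other measured secreted antagonists ran from -0.27 for FST (adjusted p = 0.11) to 0.27 for FSTL1, with CHRD and GREM1 at 0.06 each. Of these genes, FST, CHRD, GREM1, SMURF1 and SMURF2 are named outside the rule. SMAD6, an inhibitory SMAD that BMP signalling induces, read 5.06, 4.99 and 4.74 in control and 4.13, 4.16 and 4.09 in RKIP shRNA arrays. The groups lay apart, and SMAD6 fell by 0.80 (SE 0.10, limma adjusted p = 0.0020) to a value just above the median of all rows. SMAD7, the other inhibitory SMAD, fell by 0.42 (adjusted p = 0.011). BAMBI, a decoy receptor gene of the same family of signals, fell by 0.51 (adjusted p = 0.0078), and the ligand gene BMP6 by 0.76 (adjusted p = 0.0092). RUNX2, an osteoblast transcription factor gene, fell by 0.26 (adjusted p = 0.039) and lost the call whichever array was left out (adjusted p from 0.057 to 0.13). Of 30 measured ligands, receptors and antagonists 1 rose and 2 fell, 10% against 20.2% of all genes; the 1 that rose, FSTL1 at 0.27, was dim in both groups and kept its call only without RKIP shRNA replicate 3 (the highest adjusted p was 0.10). Of 15 transducers and targets 3 fell and none rose by limma, nor did any rise at an unadjusted p under 0.05, and the share that passed was 20%. BMP2 and BMP4, ligands that noggin binds, were dim in both groups and changed by 0.02 (adjusted p = 0.93) and -0.23 (adjusted p = 0.31). BMPR2 and the listed BMP target genes ID1, ID2, ID3 and ID4 had no row under their names.

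Around HHIP, the hedgehog target genes GLI1 and PTCH1 fell, while other listed targets fell, rose or did not pass. GLI1, the transcription factor gene that hedgehog signalling induces, read 4.83, 4.90 and 5.00 in control and 4.45, 4.05 and 4.34 in RKIP shRNA arrays. PTCH1, the hedgehog receptor whose upstream sequence is shown above, read 5.53, 5.85 and 5.65 in control and 5.27, 4.99 and 5.19 in RKIP shRNA arrays. Neither gene's groups overlapped, and RKIP shRNA replicate 2 was the lowest array for both, whereas it was the highest of its group for HHIP. GLI1 fell by 0.63 (SE 0.11, limma adjusted p = 0.0092) to a value just above the median of all rows, with RKIP shRNA replicate 2 under it. PTCH1 fell by 0.53 (SE 0.11, adjusted p = 0.017), and without control replicate 2 it missed the threshold (adjusted p = 0.052). The ligand genes did not pass: SHH changed by 0.03 (adjusted p = 0.87), IHH by 0.03 (0.91) and DHH by 0.11 (0.67), of which IHH was dim in both groups. SMO, the signal transducer, had no row under its name. Among the other listed targets, BCL2, an antiapoptotic gene, fell by 0.36 (limma adjusted p = 0.0078). CCND1, cyclin D1, rose by 0.38 (adjusted p = 0.035) but kept its call only without control replicate 3 (the highest adjusted p was 0.11). FOXF1 changed by 0.07 (adjusted p = 0.81) and CCND2 by -0.22 (adjusted p = 0.083), both named outside the rule. Of 26 measured genes 1 rose and 3 fell, 15.4% against 20.2% of all genes.

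Around UNC5B, the receptor gene NEO1 fell, and the UNC5 paralogs and DCC did not pass. NEO1 (neogenin), a receptor for netrins and repulsive guidance molecules, read 4.75, 4.98 and 4.68 in control and 3.94, 3.73 and 3.92 in RKIP shRNA arrays. It fell by 0.94 (SE 0.10, limma adjusted p = 0.0015) to a dim value. The UNC5B paralogs changed by 0.14 for UNC5A (adjusted p = 0.40), 0.23 for UNC5C (adjusted p = 0.075) and 0.12 for UNC5D (adjusted p = 0.55). Of these, UNC5D was dim in both groups and UNC5A was dim in control. UNC5C passed after quantile normalisation or a filter on dim probes. DCC, the attractive netrin receptor, was dim in both groups and changed by 0.14 (adjusted p = 0.68), and the ligand gene NTN1 changed by -0.14 (adjusted p = 0.49). NTNG2, a membrane-anchored netrin relative, fell by 0.78 (adjusted p = 0.0028), TRIO, a guanine nucleotide exchange factor used by netrin receptors, by 0.51 (adjusted p = 0.0038) and FLRT2, a surface ligand of UNC5 receptors, by 0.63 (adjusted p = 0.013). UNC5CL fell by 0.39, is named outside the rule and kept its call only without control replicate 1. Of 22 measured genes 5 fell and none rose by limma, 22.7% against 20.2% of all genes, and 1 gene, UNC5C, was higher at an unadjusted p under 0.05.

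**Figure D4:**
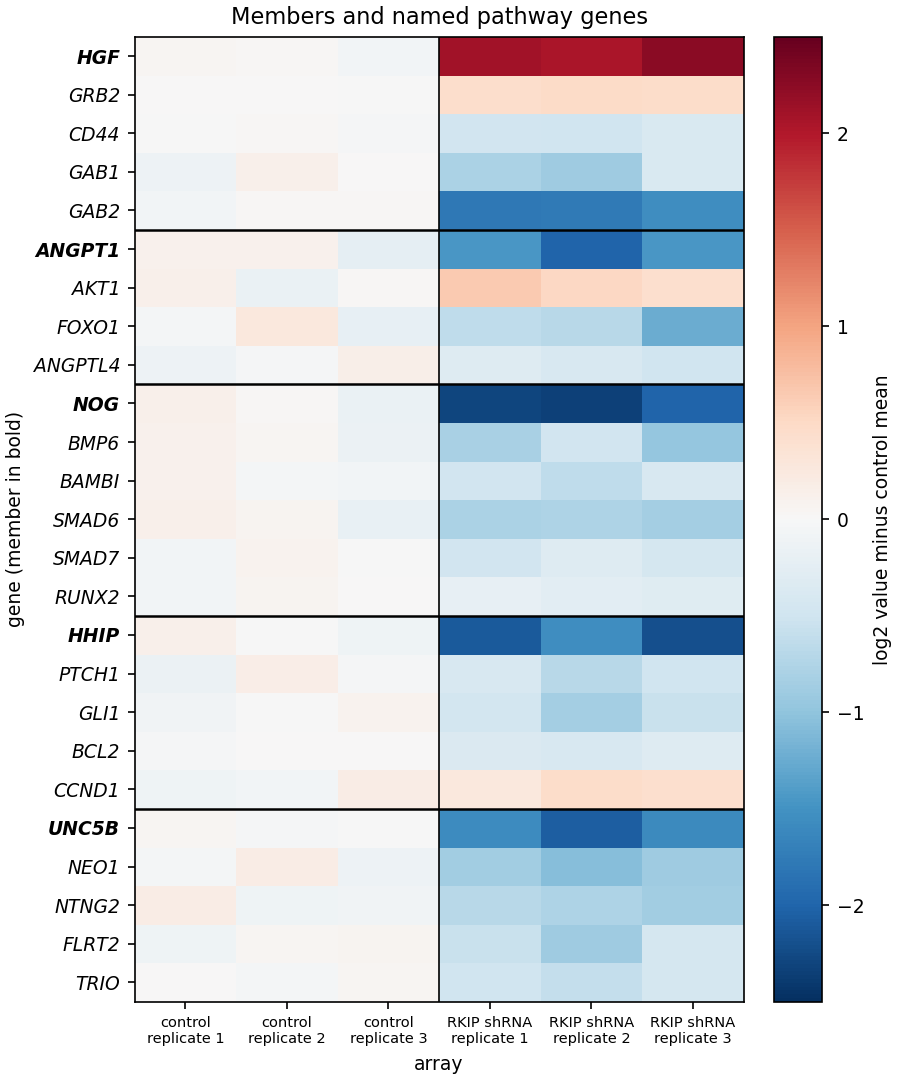
Log2 value minus the control mean in each of the 6 arrays (columns) for the 5 members (bold) and genes of their pathways that passed limma (rows), in blocks by member. HGF is red and GAB2 blue in all RKIP shRNA arrays, and PTCH1, GLI1, SMAD6 and NEO1 are lower in all 3. FSTL1, which rose, and PLXNB1 and UNC5CL, which fell, also passed and are not drawn.

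Other secreted factors moved both ways. Of 47 measured growth factor genes 4 rose and 5 fell, 19.1% against 20.2% of all genes. KITLG, which encodes stem cell factor, rose by 1.15 (SE 0.07, limma adjusted p = 0.000228) from a dim control value, and GDF11 rose by 0.73 (adjusted p = 0.0012). MSTN, the myostatin gene, fell by 1.54 (adjusted p = 0.00055) to a dim value, and VEGFA, the vascular endothelial growth factor gene, fell by 0.69 (adjusted p = 0.00093). Of 25 measured genes for antagonists of other secreted signals 1 rose and 1 fell, 8% against 20.2% of all genes. Of these 25 genes, 12 were dim in both groups. DKK2, a Wnt antagonist gene, fell by 0.77 (adjusted p = 0.0076), and IGFBP7, an insulin-like growth factor binding protein gene, rose by 0.60 (adjusted p = 0.0054).

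Markers of other cell types differed in how many were dim. Dim in both groups were 3 of 5 measured stromal, 7 of 8 endothelial and 1 of 4 megakaryocyte markers. Of 14 listed fibroblast and stromal markers only 5 were measured, and COL1A1, COL1A2, COL3A1, PDGFRA and PDGFRB were among those without a row. Of the 5 none passed by limma and 1 was higher at an unadjusted p under 0.05. The mean of this list lay at 3.43 to 3.46 in control and 3.38 to 3.49 in RKIP shRNA arrays, and LUM and DCN, which encode the matrix proteoglycans lumican and decorin, were dim in both groups, whereas THY1 (4.58 in control) and FBLN1 (4.54) were not. Of 11 listed endothelial markers 8 were measured, and 2 rose, PECAM1 by 0.62 and EMCN by 0.51, both dim in both groups. CLDN5 (4.80 in control) was not dim. The mean of this list lay at 3.10 to 3.19 in control and 3.32 to 3.46 in RKIP shRNA arrays. Of 9 listed megakaryocyte markers 4 were measured, and none of these passed by limma or had an unadjusted p under 0.05. The mean of this list lay at 4.16 to 4.20 in control and 4.09 to 4.34 in RKIP shRNA arrays, and PF4 (5.50 in control), GP6 (4.73) and GP9 (4.37) were not dim. Of 4 T cell markers 1 rose, of 2 B cell markers 1 fell and of 6 epithelial markers 1 fell, where 20.2% of all genes passed in either direction. The part of other cell types in the members' values was not tested beyond these levels. A change of RNA per cell and a change in the share of cells that express a gene cannot be told apart in such bulk samples.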

How the data were processed

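Per the labels, 250 ng of total RNA from each of 3 control and 3 RKIP shRNA samples went onto an Affymetrix Human Gene 2.0 ST array. The deposited table held 53617 rows of log2 values, a scale read from their range of 0.72 to 14.0 and array medians of 4.06 to 4.10. How the authors summarised and normalised the probes, and on which build, is not stated in any label used here. The array annotation gave 1 symbol to 16098 rows. Per gene the probe with the highest six-array mean was kept (14884 genes, 779 with several probes).

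RKIP shRNA minus control was fitted over all genes with limma 3.58.1 (lmFit, eBayes; R 4.3.3), and genes passed at a Benjamini-Hochberg adjusted p under 0.05. No brightness filter was used. The fitting script was tested on simulated data. The members, the gene lists and the motifs were chosen with earlier results of these data known. Of each list at most 4 passing genes, those with the smallest p, were named, beside PEBP1, 23 direct ligands, receptors, enzymes, inhibitors and paralogs (18 measured) and the 3 genes most like each member; the neighbouring and antisense genes were added after the values were seen. Symbols came through RefSeq (GRCh38.p14). Other settings tried were a filter on dim probes, quantile normalisation, median centring, the mean of a gene's probes, all rows, a trended and robust prior, array weights, a replicate block, an adjusted p under 0.01 and leaving out each array. Figures were drawn with matplotlib 3.10.9.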

Additional observations from a re-analysis of the deposited data

Results flagged for a closer look

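Signal also appeared outside the named genes. Among the 37519 rows that carry no gene name, 937 had higher and 1454 had lower values with the RKIP hairpin (limma, adjusted p under 0.05 over all rows). By the same adjustment 839 of the 14884 named genes rose and 935 fell, a larger share in each direction. These rows enter no comparison of the report, and no gene is assigned to them here.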

How the results depend on the processing

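The log2 changes of the 5 members kept their sign in every setting run, which is no support for them. They were chosen for large differences and their groups did not overlap, so leaving out 1 array could not turn the sign. The replicate block could not move a difference between groups of equal size and left each at its main value. Leaving out 1 array gave 2.07 to 2.18 for HGF, -1.76 to -1.46 for ANGPT1, -2.31 to -2.14 for NOG, -2.15 to -1.82 for HHIP and -1.83 to -1.58 for UNC5B, and PEBP1 ranged from -1.54 to -1.41. Each member has 1 probe, so averaging a gene's probes could not move it, and fitting every other probe by itself could not be run. Of all genes, 839 rose and 935 fell when the adjustment ran over all rows, and 697 rose and 775 fell at an adjusted p under 0.01. Without 1 array 963 to 1212 rose and 1018 to 1270 fell. Of the 120 partner genes, 7 rose after quantile normalisation, where 1588 of all 14884 genes rose. With dim probes filtered out, 7 of 83 partner genes rose, where 1887 of all 9667 genes did. With all rows or the replicate block 2 partner genes rose. At an adjusted p under 0.01, 1 partner gene rose and 10 fell. Without 1 array 2 to 3 partner genes rose and 12 to 19 fell. Replicate numbers were not a pairing here: deviations of same-numbered arrays correlated at -0.02 to 0.02. With the replicate block 1033 of all genes rose and 1109 fell, and PTCH1 had an adjusted p of 0.060. Of the 21 named genes of the partner lists that passed, 14 also passed at an adjusted p under 0.05 in each of the other settings and each fit without 1 array. So did the 6 named genes of the lists of other secreted factors, except that the filter on dim probes dropped KITLG and MSTN. The cause of these shifts was not tested. Probes below the median of all rows limit what could be detected, HHIP in RKIP shRNA cells among them.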
